A study of Homo sapiens with 6 samples.

Results

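The nucleosome remodelling and deacetylase (NuRD) complex is described here through the genes of its core subunits, CHD4, HDAC1, HDAC2, RBBP4, RBBP7, MTA1, MTA2, MTA3, GATAD2A and GATAD2B. These 10 genes were chosen by name, and each was taken from the array feature annotated with that 1 gene symbol. All 10 had such a feature, and none had more than 1, among 16704 genes tested in all. The RNA came from 3 clones of LNCaP, an androgen-responsive prostate cancer line, that were stably transfected with a short hairpin RNA directed against MBD2, and from 3 clones carrying a scrambled shRNA control. Both hairpins were expressed from the siLentGene-2 vector under neomycin selection, the clones of a group are separate transfectants, and each was hybridised as cytoplasmic RNA to 1 Affymetrix human Gene ST array. The comparison of MBD2 knockdown with scrambled control asks which genes differ when MBD2 is reduced. For the NuRD genes it shows whether the subunits that MBD2 works with differ along with it.

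NuRD joins 2 enzyme activities in 1 assembly. CHD4 moves nucleosomes with energy from ATP, and HDAC1 and HDAC2 remove acetyl groups from histone tails. MTA proteins form the scaffold that binds the deacetylases, RBBP4 and RBBP7 hold histones, and GATAD2A and GATAD2B link the CHD4 side of the complex to the MBD proteins. MBD2 and MBD3 occupy the same position in alternative forms of the complex, and MBD2 brings it to DNA with methylated CpG dinucleotides. Most subunits are encoded by several paralogous genes, so that each clone could in principle hold complexes of different make-up.

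Values are log2 signals as normalised by the authors, with 1 value per gene and clone, and the number of arrays limits the precision. The median of each array lay between 6.32 and 6.35, and knockdown clone 1 had a narrower spread of values (SD 2.05) than the other arrays (2.10 to 2.12). Knockdown clones 2 and 3 were the most alike of the 15 pairs of arrays, with an SD of 0.185 for their difference over all genes. Of the luminal prostate markers looked up, 6 of 10 were measured, and in every clone each lay at or above 8.03, over the upper quartile of every array. PTPRC, the pan-leukocyte marker, lay at most at 2.72 and was dim in all clones, while the mesenchymal filament gene VIM lay between 8.29 and 9.75. All NuRD core genes were measured above the median of their array in all 6 clones, from 6.55 for MTA3 in knockdown clone 1 to 10.68 for HDAC1 in control clone 1. In these bulk samples fewer cells expressing a gene and less RNA per cell cannot be told apart.

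MBD2 itself had log2 values of 7.68, 7.84 and 7.81 in knockdown clones 1, 2 and 3, against 8.73, 9.24 and 9.20 in control clones 1, 2 and 3. No knockdown value reached the lowest control value. The knockdown clones held 41.2% of the control level (95% confidence interval 32.6% to 52.0%, limma), with an unadjusted p of 3.08e-05 and an adjusted p of 0.111 over all genes. MBD2 passed once knockdown clone 1 was left out (adjusted p = 0.0498, limma) or control clone 1 was (adjusted p = 0.0179). Leaving out any other array raised the adjusted p from limma. It was 0.268 without knockdown clone 2, 0.458 without knockdown clone 3, 0.264 without control clone 2 and 0.350 without control clone 3.

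None of the NuRD core genes differed on a scale near that of MBD2. All of their log2 fold changes, knockdown minus control, lay between -0.24 and 0.13. The 95% intervals of the 10 genes, each taken singly, ran from 74.0% of the control level at the lowest to 124% at the highest, and none overlapped the interval of MBD2. With limma and Benjamini-Hochberg adjustment over all genes, 0 of 10 core genes had an adjusted p under 0.05, where 0% of all genes did. At an unadjusted p under 0.05 there were 2 of 10, HDAC2 and MTA2, both lower, where 9.39% of all genes lay under it, 5.45% as lower and 3.93% as higher. Without knockdown clone 2, knockdown clone 3 or control clone 1 there were 0 of 10, and without control clone 3 there was 1. Which genes these were depended on the scaling of the arrays. Under cyclic loess the 2 were CHD4 (unadjusted p = 0.0454, limma) and GATAD2B (0.0359), both higher, with HDAC2 at 0.0558 and MTA2 at 0.0941. Quantile normalization left GATAD2B alone, higher (unadjusted p = 0.039, limma), with HDAC2 at 0.0526 and MTA2 at 0.0869. The median change of the 10 genes was -0.025, against -0.0043 over all genes. The sign of that median turned with quantile normalization (0.024), cyclic loess (0.023) and the omission of knockdown clone 3 (0.014). Their median absolute change was 0.10, against 0.092 over all genes. Core genes also differed little between clones of a group: 9 of 10 had a residual SD under the median of all genes, which was 0.129, and the median over the 10 was 0.079. All core genes lay above the array medians, and their spread was not compared with that of genes of like signal.

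**Figure D1:**
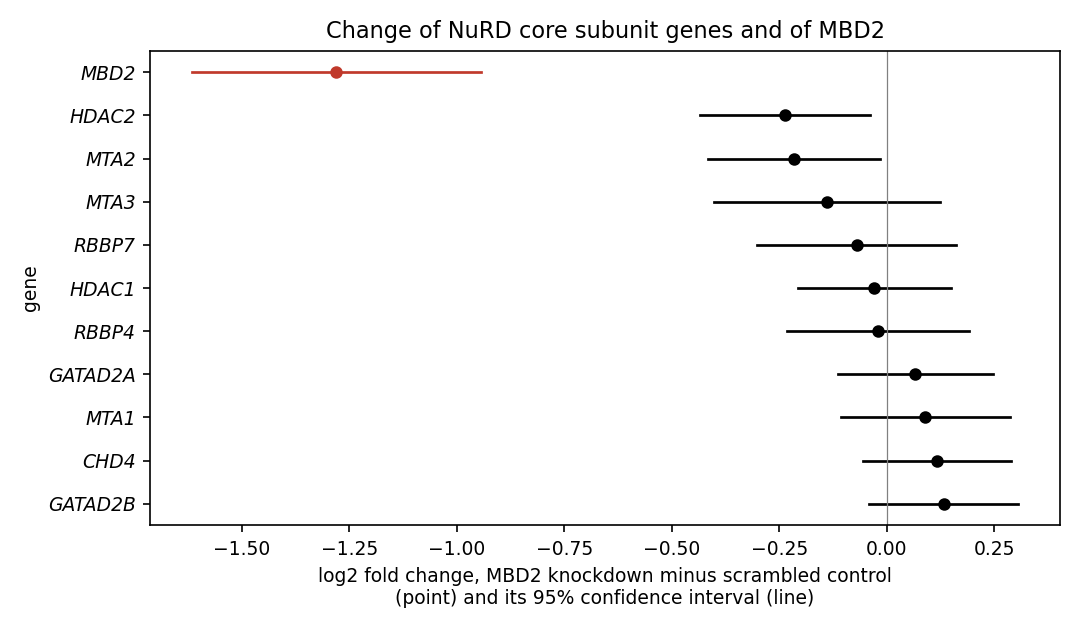
Log2 fold change of each NuRD core gene and of MBD2 (points), MBD2 knockdown minus scrambled control, with 95% confidence intervals from limma (lines), over 3 clones per group. MBD2 stands at -1.28, the core genes lie between -0.24 for HDAC2 and 0.13 for GATAD2B, and the intervals of HDAC2 and MTA2 leave out 0.

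In 4 of the 10 core genes the 3 knockdown values lay wholly on one side of the 3 control values, where 15.4% of all genes did so. HDAC2 and MTA2 were the 2 on the lower side, which held 8.87% of all genes, and CHD4 and GATAD2B were the 2 on the higher side, which held 6.57%. An exact two-sided permutation test of such a gene gives 0.1, the smallest p that 3 clones against 3 allow. These 4 genes, with MBD2, are the ones described first within their families.

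**Figure D2:**
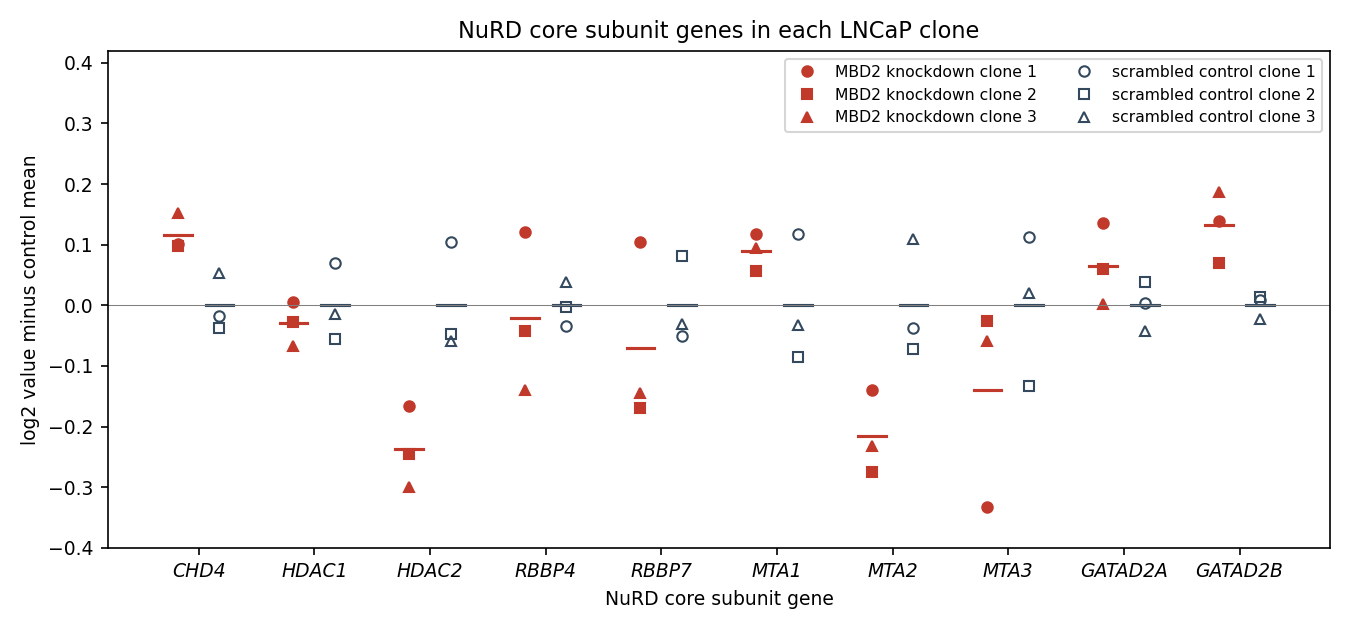
Log2 value of each NuRD core gene in every clone, minus the mean of its 3 control clones. Filled symbols are MBD2 knockdown clones, open symbols are scrambled control clones, and bars are group means. The groups are separate for HDAC2 and MTA2 (knockdown lower) and for CHD4 and GATAD2B (knockdown higher), and knockdown clone 1 stands apart from clones 2 and 3 in RBBP4, RBBP7 and MTA3.

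Of the deacetylases, HDAC2 was lower in the knockdown clones and HDAC1 was nearly level. HDAC2 had log2 values of 9.50, 9.42 and 9.37 in knockdown clones 1, 2 and 3, against 9.77, 9.62 and 9.61 in control clones 1, 2 and 3. The lowest control value exceeded the highest knockdown value by 0.11. Its log2 fold change was -0.24 (SE 0.084), or 84.9% of the control level with an interval of 74.0% to 97.3%, and limma gave an adjusted p of 0.447. Changes at least as large were seen in 13.6% of all genes. HDAC1 had 10.61, 10.58 and 10.54 in the knockdown clones, against 10.68, 10.55 and 10.59 in the controls. These groups overlapped throughout, with a log2 fold change of -0.030 (SE 0.076) and an interval of 86.6% to 111% of the control level. Its sign turned with the scaling of the arrays, with 0.023 after quantile normalization and 0.018 after cyclic loess.

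MTA2 was the other lower gene, in the family of scaffold proteins that give the complex its dimeric deacetylase core. It had log2 values of 9.34, 9.20 and 9.25 in knockdown clones 1, 2 and 3, against 9.44, 9.41 and 9.59 in control clones 1, 2 and 3. All knockdown values lay under all control values, by a gap of 0.068. The log2 fold change was -0.22 (SE 0.086), or 86.1% of the control level with an interval of 75.0% to 99.0%, and the adjusted p from limma was 0.496. MTA1 had 8.10, 8.04 and 8.08 in the knockdown clones, against 8.10, 7.90 and 7.95 in the controls. Control clone 1 matched the highest knockdown clone, and the other control clones lay under all 3 knockdown clones. The fold change of MTA1 was 0.090 (SE 0.084) on the log2 scale, and 0.15 without control clone 1 (adjusted p = 0.744, limma), but 0.047 without control clone 2. MTA3, known for repressing SNAI1 in breast epithelial cells, had 6.55, 6.86 and 6.82 in the knockdown clones, against 7.00, 6.75 and 6.91 in the controls. Only knockdown clone 1 lay under the control range. The fold change of MTA3 was -0.14 (SE 0.11) on the log2 scale, and it became -0.042 when knockdown clone 1 was left out and -0.083 when control clone 1 was.

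CHD4, the ATPase of the complex, was slightly higher in the knockdown clones. It had log2 values of 8.83, 8.82 and 8.88 in knockdown clones 1, 2 and 3, against 8.71, 8.69 and 8.78 in control clones 1, 2 and 3. The groups were separated by 0.043. Its log2 fold change was 0.12 (SE 0.074), or 108% of the control level with an interval of 96.2% to 122%, and limma gave an adjusted p of 0.685. The alternative ATPases of the complex, CHD3 and CHD5, had log2 fold changes of 0.0033 and 0.026. CHD5 was dim, between 4.56 and 4.88 in all clones. Median centring turned the sign of CHD3 (-0.0067), and cyclic loess turned that of CHD5 (-0.014).

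GATAD2B, which binds MBD2 directly, was the other gene on the higher side. It had log2 values of 8.91, 8.84 and 8.96 in knockdown clones 1, 2 and 3, against 8.78, 8.78 and 8.75 in control clones 1, 2 and 3. The control clones lay within a narrow band (SD 0.020), and the lowest knockdown clone stood 0.055 over it. The log2 fold change was 0.13 (SE 0.075), or 109.6% of the control level with an interval of 97.1% to 124%, and the adjusted p from limma was 0.645. GATAD2A, its paralogue, whose coiled coil pairs with that of MBD2, had 8.48, 8.40 and 8.34 in the knockdown clones, against 8.34, 8.38 and 8.30 in the controls. Knockdown clones 1 and 2 lay over the controls and clone 3 lay among them. The fold change of GATAD2A was 0.066 (SE 0.077) on the log2 scale. After quantile normalization or cyclic loess its groups did not overlap either, with 0.12 under cyclic loess. Leaving out knockdown clone 1 reduced it to 0.031, and leaving out knockdown clone 3 gave 0.097.

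The histone-binding subunits RBBP4 and RBBP7 differed more among knockdown clones than between the groups. RBBP4 had log2 values of 10.38, 10.21 and 10.12 in knockdown clones 1, 2 and 3, against 10.22, 10.25 and 10.29 in control clones 1, 2 and 3. RBBP7 had 10.03, 9.76 and 9.78 in the knockdown clones, against 9.88, 10.01 and 9.90 in the controls. In both genes knockdown clone 1 lay over every control clone and knockdown clones 2 and 3 lay under every control clone. Over all clones the log2 fold changes were -0.020 for RBBP4 (SE 0.090, adjusted p = 0.969) and -0.070 for RBBP7 (SE 0.099, adjusted p = 0.874) with limma. Without knockdown clone 1 the fold changes were -0.091 for RBBP4 and -0.16 for RBBP7, with adjusted p of 0.622 and 0.398. In the opposite direction, RBBP4 became 0.039 on omission of knockdown clone 3. RBBP7 shrank to -0.021 on omission of knockdown clone 2, -0.033 of knockdown clone 3 and -0.029 of control clone 2. Clone 1 exceeded the mean of clones 2 and 3 by 0.21 in RBBP4 and 0.26 in RBBP7. In MTA3 it lay under that mean, with a difference of -0.29. RBBP4 and RBBP7, like HDAC1 and HDAC2, are similar in sequence, and how far the array features tell these paralogues apart was not tested.

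Since paralogues can replace each other in the complex, the difference between 2 of them within each array was compared between the groups. It is a difference of RNA signals, and neither protein nor the make-up of the complex was measured. This difference does not move when an array is shifted as a whole, and its absolute size depends on the probes, so only its change is read. For HDAC2 minus HDAC1 the within-array log2 difference was -1.12, -1.16 and -1.18 in knockdown clones 1, 2 and 3, against -0.91, -0.94 and -0.99 in control clones 1, 2 and 3. The groups were separated by 0.13, with means of -1.15 ± 0.031 in knockdown and -0.94 ± 0.040 in control clones (SD, n = 3 each). The difference between the group means was -0.21, a ratio of HDAC2 to HDAC1 at 86.6% of that in the controls. For MTA2 minus MTA1 it was 1.24, 1.16 and 1.17 in the knockdown clones, against 1.34, 1.51 and 1.64 in the controls. The difference between the group means was -0.31, a ratio of MTA2 to MTA1 at 80.9% of that in the controls. MTA3 minus MTA1 also did not overlap, with a difference of -0.23 that was -0.12 without knockdown clone 1. Each of these 3 pairs had an exact two-sided permutation p of 0.1, the smallest possible here, and 0.2 after adjustment over the 6 pairs compared. The pairs are not independent, since MTA1 is in both MTA pairs and HDAC2 and MTA2 had separate groups on their own. How often the difference of any 2 genes separates the groups was not computed. In RBBP7 minus RBBP4 (-0.050), GATAD2B minus GATAD2A (0.066) and MTA3 minus MTA2 (0.076) the groups overlapped, with exact permutation p of 0.5, 0.5 and 0.8. Omitting control clone 2 gave -0.0069 for RBBP7 minus RBBP4 and omitting control clone 3 gave -0.084, while omitting knockdown clone 3 gave 0.0065 for GATAD2B minus GATAD2A. For MTA3 minus MTA2 the omission of knockdown clone 1 gave 0.21 and that of knockdown clone 2 gave -0.010.

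**Figure D3:**
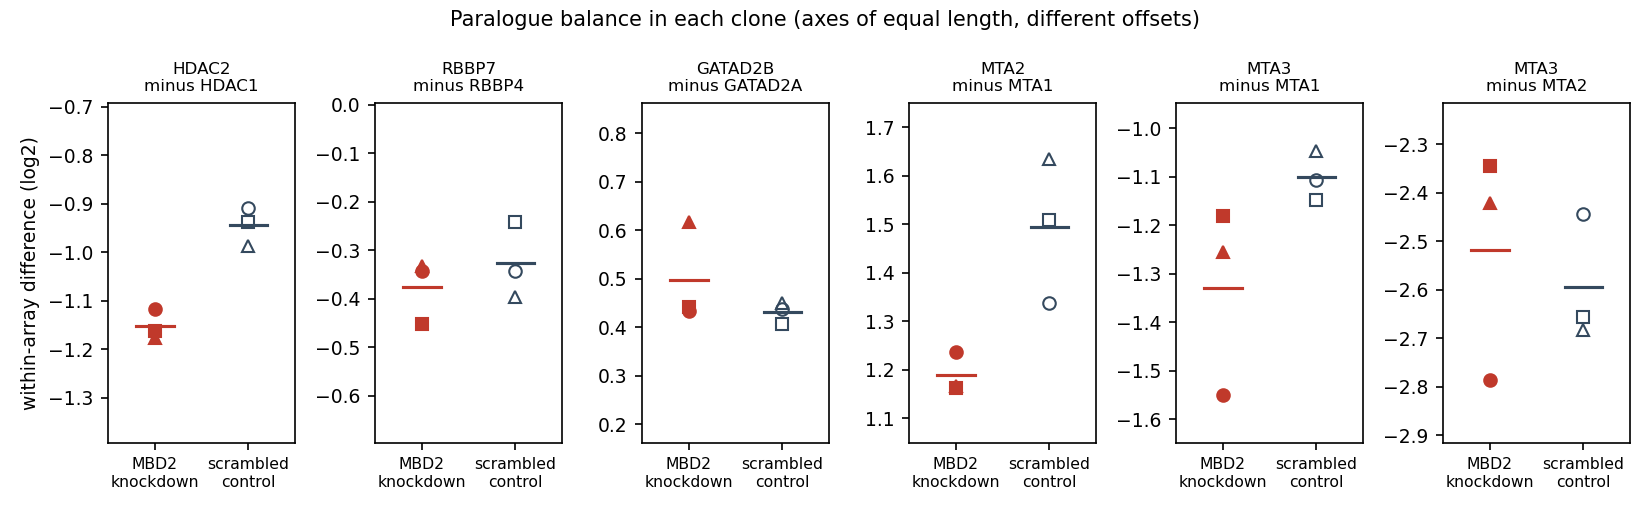
Within-array log2 difference between paralogous NuRD genes in each clone, 6 panels of equal axis length. Filled symbols are MBD2 knockdown clones (left in each panel), open symbols are scrambled control clones, symbol shapes are clone numbers 1 (circle), 2 (square) and 3 (triangle), and bars are group means. HDAC2 minus HDAC1, MTA2 minus MTA1 and MTA3 minus MTA1 lie lower in all 3 knockdown clones, and the other panels overlap.

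The promoters of the 4 genes with separate groups are shown because CpG dinucleotides, printed in capitals, are what MBD2 binds when they are methylated. Methylation was not measured in these samples. The sequences are the 250 bases before the annotated start, on the strand of the gene and 5′ to 3′, from RefSeq on GRCh38.p14. They lie at chr6:113971149-113971398 (minus strand) for HDAC2, chr11:62601866-62602115 (minus strand) for MTA2, chr12:6606452-6606701 (minus strand) for CHD4 and chr1:153922973-153923222 (minus strand) for GATAD2B. For MTA2, which has 2 annotated starts, the upstream one is used.
HDAC2: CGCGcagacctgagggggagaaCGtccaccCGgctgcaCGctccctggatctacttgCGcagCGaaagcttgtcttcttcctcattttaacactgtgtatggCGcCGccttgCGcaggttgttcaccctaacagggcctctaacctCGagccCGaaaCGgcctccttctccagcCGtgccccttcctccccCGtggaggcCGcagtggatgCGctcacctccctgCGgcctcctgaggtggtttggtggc
MTA2: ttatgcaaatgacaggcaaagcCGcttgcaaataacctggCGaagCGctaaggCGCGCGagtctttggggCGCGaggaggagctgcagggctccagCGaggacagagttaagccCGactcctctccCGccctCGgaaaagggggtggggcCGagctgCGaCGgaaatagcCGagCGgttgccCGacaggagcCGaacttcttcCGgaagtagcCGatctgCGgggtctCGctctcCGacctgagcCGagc
CHD4: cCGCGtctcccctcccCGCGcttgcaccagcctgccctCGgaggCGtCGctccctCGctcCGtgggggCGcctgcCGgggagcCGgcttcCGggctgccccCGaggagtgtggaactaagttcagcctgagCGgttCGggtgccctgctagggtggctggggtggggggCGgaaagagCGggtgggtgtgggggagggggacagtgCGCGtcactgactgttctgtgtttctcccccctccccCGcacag
GATAD2B: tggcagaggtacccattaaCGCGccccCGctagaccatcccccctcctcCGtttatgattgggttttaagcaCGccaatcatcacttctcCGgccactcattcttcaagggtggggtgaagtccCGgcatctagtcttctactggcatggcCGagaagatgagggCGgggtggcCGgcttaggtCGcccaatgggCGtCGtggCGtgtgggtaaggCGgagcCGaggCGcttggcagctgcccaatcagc
These windows hold 18 CpG in HDAC2, 25 in MTA2, 21 in CHD4 and 17 in GATAD2B. RefSeq windows were matched for all 10 core genes, with 17 to 41 CpG at the most upstream start, and all 10 lay over the median of 11 among 35114 windows of the same length. At least 18 CpG, as in HDAC2, were present in 36.8% of all windows. The 2 genes lower in knockdown and the 2 higher ones did not separate by this count. Short motifs were searched on both strands. The GC box GGGCGG was present in 9 of 10 core windows and 42.6% of all windows, and among the 4 printed it was absent from HDAC2 only. CCAAT was present in 5 of 10 core windows and 32.0% of all, with 4 matches in GATAD2B and none in the other 3 printed. The E2F-type motif TTCCCGC, which can overlap a GC box, was in 0 of 10 core windows and 5.52% of all. These core counts use the most upstream start of each gene, while the share of all windows includes every start. GGGCGG and TTCCCGC hold a CpG themselves, and no share was computed among windows of like CpG count. At its second start MTA2 has 1 match to the E2F-type motif, and the window at the second MTA3 start holds 3 CpG.

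Genes outside the core that act with NuRD were compared in lists. Of the MBD and accessory proteins, 6 of 10 were lower and 4 higher in knockdown, with a median of -0.058 on the log2 scale (-0.101 to -0.011 with single arrays left out, at knockdown clones 1 and 3), and 0 had an adjusted p under 0.05 with limma (1 at an unadjusted p under 0.05, MBD2 itself). MBD3, which takes the place of MBD2 in the other form of the complex, had 7.25, 7.17 and 7.23 in knockdown clones 1, 2 and 3, against 7.11, 7.35 and 7.18 in control clones 1, 2 and 3. The groups overlapped, and the log2 fold change of MBD3 was 0.0048 with an interval of 86.8% to 116% of the control level. PWWP2A, a chromatin reader that binds the MTA1-HDAC part of NuRD, had 7.28, 7.11 and 7.06 in the knockdown clones, against 7.01, 6.95 and 6.98 in the controls. The groups did not overlap, with a log2 fold change of 0.17 (adjusted p = 0.603, limma). Of the factors that recruit NuRD to genes, 8 of 12 were higher with a median of 0.062 that was 0.0076 when knockdown clone 1 was omitted, and 0 had an adjusted p under 0.05 with limma or an unadjusted p under 0.05. Without the dimmest 30% of genes the median of the factors left was -0.073. SALL2 had 0.28 and IKZF1 0.16, both from signals under the median of every array. SALL2 lay between 4.62 and 5.26 in all clones, and IKZF1 was dim, between 3.05 and 3.28.

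Other complexes that share HDAC1, HDAC2, RBBP4 or RBBP7 did not pass either, and nor did the NCoR and SMRT complex or the other deacetylases. Each of these lists had 0 members at an adjusted p under 0.05 in limma. In the SIN3 complex 7 of 11 measured members were lower, the median was -0.047 (-0.077 on omission of knockdown clone 2, -0.017 of knockdown clone 1 and -0.013 of knockdown clone 3), and the 2 with the smallest p were SAP130 at -0.18 and SAP30 at -0.16. In the CoREST complex 4 of 7 were lower with a median of -0.061 (-0.115 on omission of control clone 1, -0.013 of control clone 3), where RCOR2 had 0.12 and the demethylase gene KDM1A -0.10. None of the SIN3 or CoREST members had an unadjusted p under 0.05. The NCoR and SMRT complex, built on HDAC3, had 5 measured members with a median of 0.052, but leaving out knockdown clone 2 gave -0.043 and leaving out control clone 2 gave -0.033. Its member TBL1X had -0.25 with groups that did not overlap (unadjusted p = 0.0197, adjusted p = 0.422, limma), and GPS2 had 0.052. Of the other deacetylases 4 of 9 were lower with a median of 0.041, but leaving out knockdown clone 1 gave -0.023 and leaving out knockdown clone 3 gave -0.011. Among these, HDAC5 was higher in all 3 knockdown clones than in any control, with 0.25 (adjusted p = 0.404, limma), and HDAC8 had -0.12.

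The partners of RBBP4 and RBBP7 outside NuRD were lower in 7 of 8 cases with a median of -0.074 (-0.186 on omission of knockdown clone 1, -0.033 of control clone 2), and 0 had an adjusted p under 0.05 with limma. EED, a core subunit of Polycomb repressive complex 2, had 7.26, 7.23 and 7.30 in knockdown clones 1, 2 and 3, against 7.37, 7.52 and 7.55 in control clones 1, 2 and 3. Those groups did not overlap, with a log2 fold change of -0.22 (adjusted p = 0.476, limma). SMARCA1, a nucleosome-sliding ATPase, was the 1 higher member at 0.42 (adjusted p = 0.315, limma). With array weights it passed (adjusted p = 0.0402, limma), where 325 of all genes did. It was dim, at 4.49, 4.73 and 4.70 in the knockdown clones, against 4.16, 4.37 and 4.14 in the controls. CHAF1B, a subunit with RBBP4 of the histone chaperone CAF-1, was looked at after its values were seen. It had 9.17, 8.54 and 8.34 in the knockdown clones, against 8.49, 8.92 and 8.70 in the controls, so knockdown clone 1 was the highest clone and clone 3 the lowest, as in RBBP4.

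Proliferation markers had lower values in the same clones as HDAC2 and MTA2. All 20 were lower in knockdown, where 8566 of 16704 genes were, with a median of -0.38 on the log2 scale. There were 14 at an unadjusted p under 0.05, where 5.45% of all genes were at such a p as lower, and 0 at an adjusted p under 0.05 with limma. Without knockdown clone 1 there were 3 at an adjusted p under 0.05 with limma, where 70 of all 16704 genes were. Examples are the spindle motor gene KIF11 at -0.53 and the checkpoint kinase gene TTK at -0.48. Averaged over these markers, the log2 level was 8.58, 8.29 and 8.17 in knockdown clones 1, 2 and 3, against 8.81, 8.77 and 8.67 in control clones 1, 2 and 3. Knockdown clone 1 had the smallest difference from the controls in this list and also in HDAC2 and MTA2. Knockdown clone 3 was the lowest knockdown clone in the list and in HDAC2, but in MTA2 it was clone 2. Control clone 3 was the lowest control in the list and in HDAC2, but the highest in MTA2. The part of proliferation in the HDAC2, MTA2, RBBP4 and RBBP7 values was not tested.

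**Figure D4:**
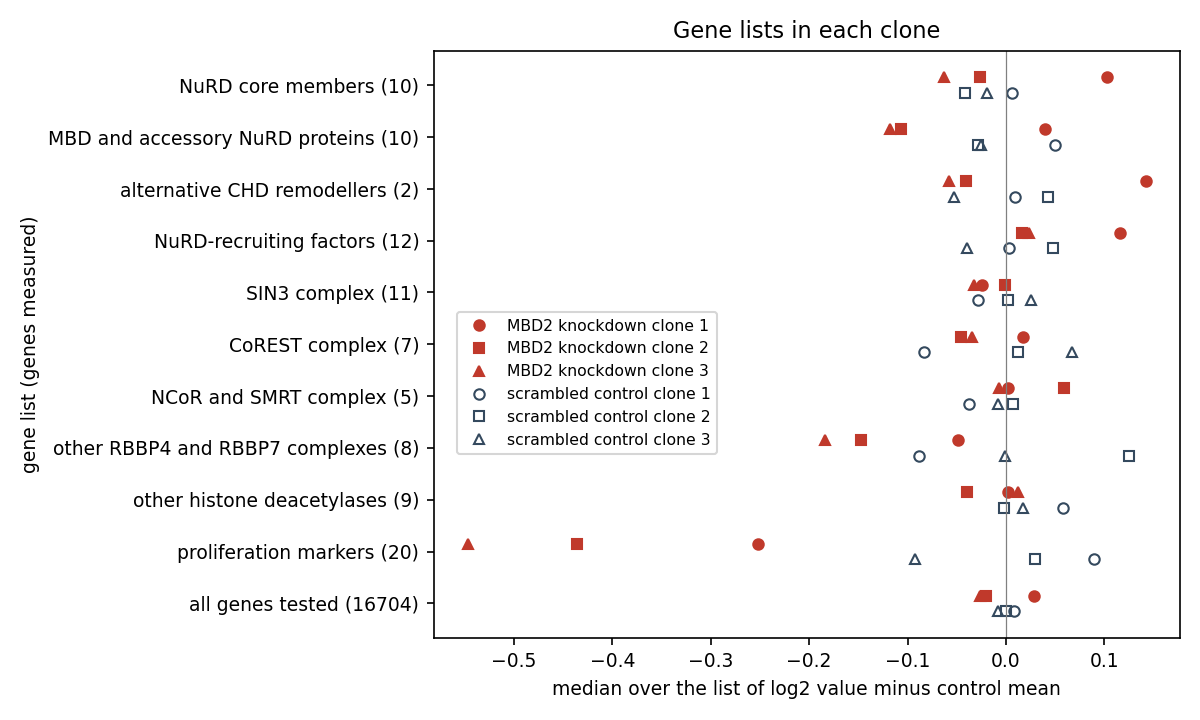
Median over each gene list of the log2 value minus the control mean, in each clone. Filled symbols are MBD2 knockdown clones and open symbols are scrambled control clones, and the number of genes measured stands in brackets. The NuRD core genes lie at 0.10, -0.026 and -0.063 in knockdown clones 1, 2 and 3, while the proliferation markers lie at -0.25, -0.44 and -0.55.

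The genes whose profile over the 6 arrays was most like that of a core gene were found for the 3 core genes with the largest SD over arrays, MTA3, HDAC2 and MTA2. Likeness was the root mean square difference of the log2 values after each gene was centred on its own mean. Nearest to MTA2 were ANK3, at 0.010, and MED19, at 0.017. ANK3 had 9.23, 9.11 and 9.12 in knockdown clones 1, 2 and 3, against 9.33, 9.29 and 9.48 in control clones 1, 2 and 3, so control clone 3 was highest in ANK3 as in MTA2. Nearest to HDAC2 were RNASEH2B at 0.022 and MRPL9 at 0.026, with control clone 1 highest and knockdown clone 3 lowest in all 3 genes. For MTA3 they were ABHD5 at 0.016 and EIF2B4 at 0.020, with knockdown clone 1 lowest in all 3 genes. With 6 arrays and 16704 genes, some close profiles are to be found for any gene.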

How the data were processed

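Cytoplasmic RNA of 3 MBD2 knockdown and 3 scrambled control clones, grouped by title, was measured on 1 array each. The deposited table holds log2 values for 19712 features. Per the submitters' processing notes the authors used RMA, a method of background correction, normalisation and probe summary, with the R packages oligo and limma. Versions and genome build were not given in the sources used here, and the log2 scale was read from RMA and the value range. No filter on signal was set here, and no depth exists for arrays.

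GEO's platform annotation gives 1 symbol to 17334 features, several to 1521 and none here to 857. Features with several symbols or none were left out, and the 470 genes with several features kept the one with the highest mean. Knockdown was compared with control by limma 3.58.1 (R 4.3.3) with no covariates on all 16704 genes, adjusted by Benjamini-Hochberg at 0.05. Paralogue differences were tested by exact permutation over the arrays. On data simulated for this comparison with 200 of 16704 genes changed, over 20 draws, 89.5% of 2-fold and 98.8% of 4-fold changes were recovered and 5.12% of calls were false. In the real arrays 63 genes, MBD2 among them, differed 2-fold or more between the groups, and 0 passed. The simulated recovery can therefore not be read as that of these clones. No recovery was computed for smaller changes such as those of the core genes.

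Members and lists were chosen with earlier results of these data known. Named are all core genes, MBD2, and of each other list up to 4 genes that passed or, as here, the 2 with the smallest p. MBD3, PTPRC, VIM, KLK3 and CHAF1B were added outside this rule. Of the luminal prostate markers 4 of 6 were lower (median log2 fold change -0.043, which quantile normalization and cyclic loess turned), and of the markers of other cell types 4 of 9 were (median 0.013). The rule gave KRT18 (-0.17), HOXB13 (-0.26), COL1A1 (0.24) and KRT5 (0.17), while KLK3 had 0.71 and VIM -0.33, none with an adjusted p under 0.05 in limma. Alternatives were 3 scalings, a filter on the dimmest 30% of genes, trend and robust eBayes, array weights, the replicate block, averaged features, all features, each array left out, and an adjusted p under 0.1. Averaging knockdown clones 2 and 3 was chosen after seeing the data.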

Additional observations from a re-analysis of the deposited data

How the results depend on the processing

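No core gene had an adjusted p under 0.05 under any of the alternatives run, and HDAC2, MTA2, CHD4 and GATAD2B kept their direction and separate groups under the 3 scalings (the other alternatives could not make separate groups overlap). Over all 15 alternatives computed gene by gene, HDAC2 ranged from -0.27 to -0.18 and MTA2 from -0.25 to -0.16. The number of core genes at an unadjusted p under 0.05 ranged from 0 to 2, with 1 under quantile normalization (GATAD2B, higher), 2 under cyclic loess (CHD4 and GATAD2B, higher, in place of HDAC2 and MTA2), 1 with the replicate block and 0 with knockdown clones 2 and 3 averaged, and of core genes with separate groups from 4 to 6. Without knockdown clone 1, RBBP4 and RBBP7 were separate and lower too. GATAD2A was separate and higher without knockdown clone 3, MTA1 higher without control clone 1, and MTA3 lower without control clone 2. Leaving out an array can only add separate genes, and the share of all genes separate with an array left out was not computed. The replicate numbers were not taken as pairs, since deviations of same-numbered clones correlated at -0.025, -0.19 and 0.17 over genes. With the replicate block 0 core genes passed and HDAC2 had an adjusted p of 0.47 (limma). Fold changes cannot move with this block, since each replicate number holds 1 knockdown and 1 control clone.

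Over all genes 0 passed in the fit reported, against 1 with quantile normalization, 1 with cyclic loess, 325 with array weights, 2 at an adjusted p under 0.1, and 0 to 70 when single arrays were left out, with 70 without knockdown clone 1 and 7 without control clone 1. MBD2 passed in 3 alternatives, with array weights (adjusted p = 0.0138) and without knockdown clone 1 (0.0498) or control clone 1 (0.0179).

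Signs turned for HDAC1, RBBP4, CHD3, CHD5 and MTA3 minus MTA2. HDAC1 became 0.023 with quantile normalization, 0.018 with cyclic loess, and ranged from -0.057 to 0.0053 with arrays left out. RBBP4 became 0.025 with quantile normalization, 0.029 with cyclic loess, 0.015 with knockdown clones 2 and 3 averaged, and ranged from -0.091 to 0.039 with arrays left out. CHD5 became -0.010 with quantile normalization, -0.014 with cyclic loess and -0.028 with array weights, and ranged from -0.067 to 0.091 with arrays left out. CHD3 became -0.0067 with median centring and -0.053 with array weights, and ranged from -0.036 to 0.047 with arrays left out. MTA3 minus MTA2 ranged from -0.010 to 0.21 with arrays left out, the lowest without knockdown clone 2. List medians near 0 also turned, among them that of the core genes (0.024 with quantile normalization). The factors that recruit NuRD had -0.073 without the dimmest genes, the NCoR and SMRT complex -0.036 with knockdown clones 2 and 3 averaged, and the other deacetylases -0.031 with array weights. With array weights SMARCA1 (adjusted p = 0.0402) and 10 proliferation markers had an adjusted p under 0.05. The causes were not tested. Precision is limited by the 3 arrays per group.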
